A study of Canis lupus familiaris with 4 samples.

Results

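The first 3 Mb of the 38 numbered dog chromosomes, counted from the start of each chromosome sequence, held 3184 of the 59081 ATAC-seq peaks deposited for a study of nuclear envelope folds and chromatin in MDCKII cells. A peak was taken as a member where its midpoint lay at or below position 3000000 of chromosomes 1 to 38 (build CanFam3.1). The members made up 5.39% of all peaks and 5.52% of those on numbered chromosomes. The rule used positions and no measured value. MDCKII is an established epithelial line from canine kidney whose cells form a polarised monolayer. Mature cells (2 libraries, A and B) had been grown for 7 d to a full monolayer, while reseeded cells (2 libraries, also A and B) had been taken off a mature monolayer and given 2 h on a new surface. Both groups were of the same line, labelled wild type ("wt"), with no further treatment named.

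The dog's numbered chromosomes are acrocentric, meaning that the centromere sits close to one end. Chromatin near a centromere is typically rich in repeated DNA and packed as heterochromatin, and in many cells it lies against the nuclear envelope or the nucleolus, while gene-rich chromatin tends to lie further inside. By the usual convention the sequence start is the centromere side. The deposited file records no centromere, so the orientation of each sequence was not checked here. The sequences of chromosomes 27 and 32 may run the other way, in which case their starts are not the centromere side. In ATAC-seq the transposase Tn5 cuts and tags DNA that is free of nucleosomes, so more reads at a peak mean more accessible DNA, relative to the other peaks of the library. Peaks were not placed on genes, since no annotation of this build was used, and the labelled cell type was therefore not checked against marker genes.

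Mature libraries A and B held 8759513 and 6253706 counts over all peaks, and reseeded A and B held 16906566 and 24015663, of which 513192, 370921, 877548 and 1249999 fell in members. The labels do not call the libraries of a group separate cultures. The p-values then measure spread between these libraries alone, and that spread may be technical. Sample names open with a code that differs between the groups, so any batch behind the code and the reseeding cannot be told apart. Levels are given as CPM, the count scaled to library size with trimmed-mean (TMM) factors. Over the members, the 2 mature libraries had a Pearson's r of 0.971 on log2(CPM + 0.5), the 2 reseeded ones 0.992, and pairs across groups 0.313 to 0.365. Peaks are not independent replicates.

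Chromosome starts lost accessibility more often, and gained it less often, than the rest of the genome. Of 3183 members tested, 2687 (84.4%) were called (adjusted p under 0.05), against 84.1% of all tested peaks. Of these, 1606 were lower and 1081 higher in reseeded than in mature cells by edgeR's quasi-likelihood test, whereas 41.8% and 42.3% of all tested peaks were lower and higher. At least 2-fold losses were found at 670 members (21.0%) and at least 2-fold gains at 643 (20.2%). Among all tested peaks, 15% lost and 26.9% gained as much. At least 4-fold losses were found at 323 members (10.1%, against 6.04% of all peaks) and at least 4-fold gains at 231 (7.26%, against 10.1%). The median log2 fold, reseeded over mature, was -0.25 for members and 0.02 for the other peaks of numbered chromosomes. Under loess offsets, which follow each peak's mean level, 737 members (23.2%) were at least 2-fold lower, with 464 (14.6%) higher by that margin. The other peaks of numbered chromosomes then gave 17.1% and 19.9%, and the medians were -0.26 for members and -0.10 for the others. Members are neighbours on the same chromosomes in the same libraries, so these shares carry no test of their own.

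The share of a library's counts that fell in members showed the same difference. It was 5.86% in mature A (95% Wilson interval 5.84 to 5.87), 5.93% in mature B (5.91 to 5.95), 5.19% in reseeded A (5.18 to 5.20) and 5.20% in reseeded B (5.20 to 5.21). Both mature libraries lay above both reseeded libraries, and the means were 5.89% ± 0.051 and 5.20% ± 0.010 (SD, n = 2 per group). The exact 2-sided permutation test gave p = 0.333, the smallest that 2 against 2 libraries allow. The intervals cover counting error only.

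The pattern was not seen from 3 to 6 Mb and was present at the other chromosome end. From 3 to 6 Mb, 13.3% of 2655 tested peaks were at least 2-fold lower, with 27.7% higher by that margin, close to the rest of the numbered chromosomes (14.6% and 27.4%). In the last 3 Mb before the end of each chromosome's last peak, 23.2% of 3200 peaks were at least 2-fold lower, with 17.1% higher by that margin. Counts in the first 3 Mb divided by those in the next 3 Mb were 1.35 in mature A, 1.38 in mature B, 1.18 in reseeded A and 1.18 in reseeded B. Relative to the next 3 Mb, the starts were thus lower in both reseeded libraries (exact permutation p = 0.333, the smallest possible). Divided by the last 3 Mb the same counts gave 0.898, 0.862, 0.968 and 0.972, so the far ends fell further than the starts in these sums, with the same smallest p. At the bound itself, the members from 2.5 to 3 Mb had a median log2 fold of -0.06, with 17.5% at least 2-fold lower. The 387 peaks just outside, from 3 to 3.5 Mb, had a median of 0.13, with 11.1% at least 2-fold lower.

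Losses were most frequent in the first megabase and gains rose with distance, though not evenly. In the first 500 kb 25.2% of 580 peaks were at least 2-fold lower, with 15.3% higher by that margin. The shares were 23.2% and 19.9% from 0.5 to 1 Mb, 17.7% and 21.6% from 1 to 1.5 Mb, and 22.3% and 16.97% from 1.5 to 2 Mb. They were 19.6% and 24.2% from 2 to 2.5 Mb and 17.5% and 24.3% from 2.5 to 3 Mb. At this bin width losses thus exceeded the 15% of all peaks in each of the 6 bins, and gains stayed below 26.9% in each. Bins of 250 kb did not all show this. From 2.25 to 2.5 Mb 14.2% of peaks were at least 2-fold lower and 30.5% higher by that margin. From 2.5 to 2.75 Mb the shares were 11.97% and 26.92%, with a median log2 fold of 0.08, and from 2.75 to 3 Mb 22.1% and 22.1%. At least 4-fold losses went from 14.5% in the first bin to 6.23% in the last. Across members, the rank correlation of log2 fold with distance was weak (Spearman's rho 0.10, n = 3183 peaks in shared libraries), which is a description and not a test.

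**Figure D1:**
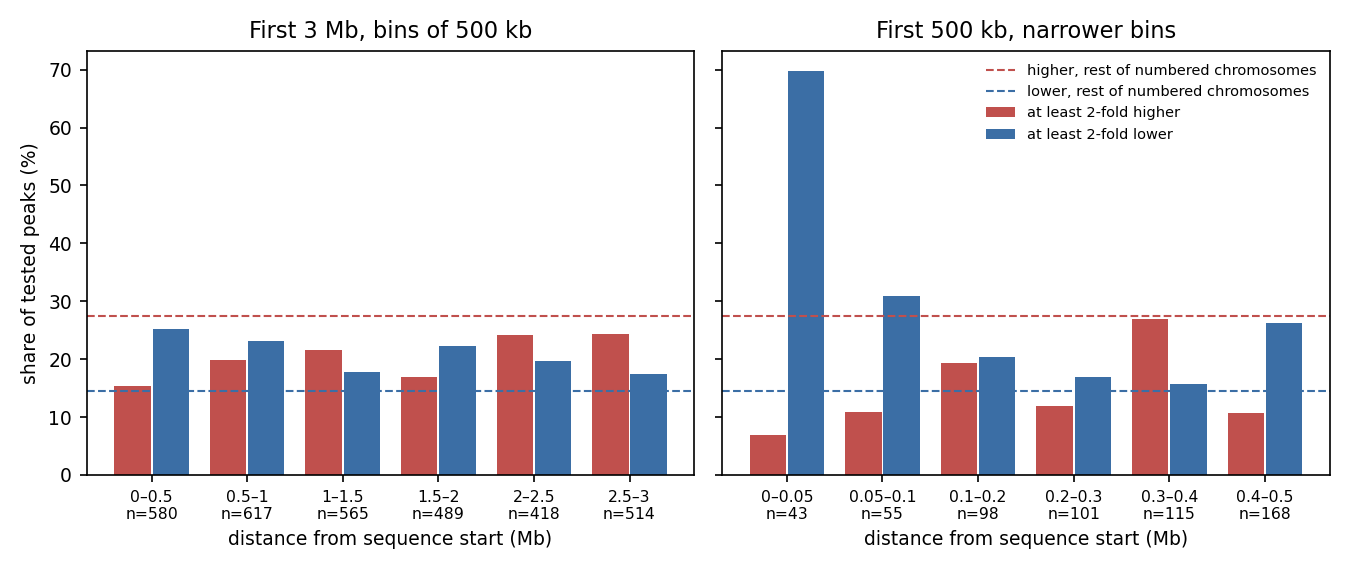
Share of tested peaks (%) that were called and at least 2-fold higher (red) or lower (blue) in reseeded cells, by distance from the sequence start (Mb), with the number of peaks under each pair of bars; dashed lines give the shares over the rest of the numbered chromosomes (27.4% and 14.6%). Blue bars stand above the blue line in each bin, and the bar for the first 50 kb reaches 69.8%.

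A larger share of peaks was lost in the outermost 50 kb than further in, though these peaks were few. Within 50 kb of the sequence start lay 43 peaks on 16 chromosomes, of which 30 (69.8%) fell at least 2-fold, 29 of them (67.4% of the 43) at least 4-fold, while 3 were at least 2-fold higher. From 50 to 100 kb, 17 of 55 peaks were at least 2-fold lower, and from 100 to 200 kb 20 of 98. The median log2 fold was -3.48 in the first 50 kb, -0.28 from 50 to 100 kb and -0.35 from 100 to 200 kb. Frequent losses were not particular to the starts. In the last 100 kb before the end of each chromosome's last peak, 39.3% of 211 peaks were at least 2-fold lower. At least 4-fold losses made up 28.4% there, and the median log2 fold was -0.52. The first 100 kb (98 peaks) had 48.0%, 39.8% and -0.89. Beyond the first 100 kb, 623 of 3085 members (20.2%) were still at least 2-fold lower, with 634 (20.6%) higher by that margin. Most of the excess of losses over the genome's share therefore lay outside the outermost 100 kb.

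Of the 43 peaks in the first 50 kb, 29 on 11 chromosomes were at least 4-fold lower, and 14 were not. The chromosome 38 peak among the 29 had a log2 fold of -2.04. The log2 folds of the other 28, set apart after seeing the values, ran from -4.43 to -3.15. Since the 29 were chosen by their fold, that choice sets part of this range. The level of the 29 was low in reseeded cells, with median CPM of 0.992 and 1.19 in libraries A and B, against 12.4 and 18.5 in mature A and B. The mature libraries differed here. Mature B exceeded mature A, with a median log2 ratio per library total of 0.70 over the 29 peaks and 0.00071 over members that were not called. The part of this gap in the result was not tested. The median log2 fold of the 43 peaks was -3.09 without mature B and -3.70 without mature A. It was -3.26 without reseeded A and -3.60 without reseeded B, beside -3.48 with all libraries.

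On chromosome 1 the 7 peaks within 50 kb, which were the 7 peaks of its first 500 kb, summed to 69.9 CPM in mature A, 116 in mature B, 5.60 in reseeded A and 5.91 in reseeded B. Both reseeded libraries lay far below both mature ones (window of 500 kb, log2 fold -3.98, SE 0.25, edgeR adjusted p = 1.13e-06). The member nearest any sequence start, chr1:233-733, had 44 and 42 counts in mature A and B and 10 and 16 in the deeper reseeded libraries. That is 5.10 and 6.80 CPM against 0.584 and 0.656 CPM (log2 fold -3.21, SE 0.44, adjusted p = 5.98e-08), and loess offsets gave -6.16, so the size of this fold depends on the scaling. On chromosome 6 the 5 peaks of the first 50 kb summed to 73.4 and 125 CPM in mature cells and to 5.78 and 6.89 CPM in reseeded cells. On chromosome 22 the 4 peaks summed to 71.2 and 123 CPM and to 7.06 and 8.04 CPM. The loss was not shared by each chromosome with peaks so close to the start. On chromosome 9 the 4 peaks summed to 86.9 and 81.0 CPM in mature and 68.6 and 69.3 CPM in reseeded cells, and on chromosome 21 a single peak had 16.1 and 17.8 CPM against 22.1 and 20.8 CPM.

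**Figure D2:**
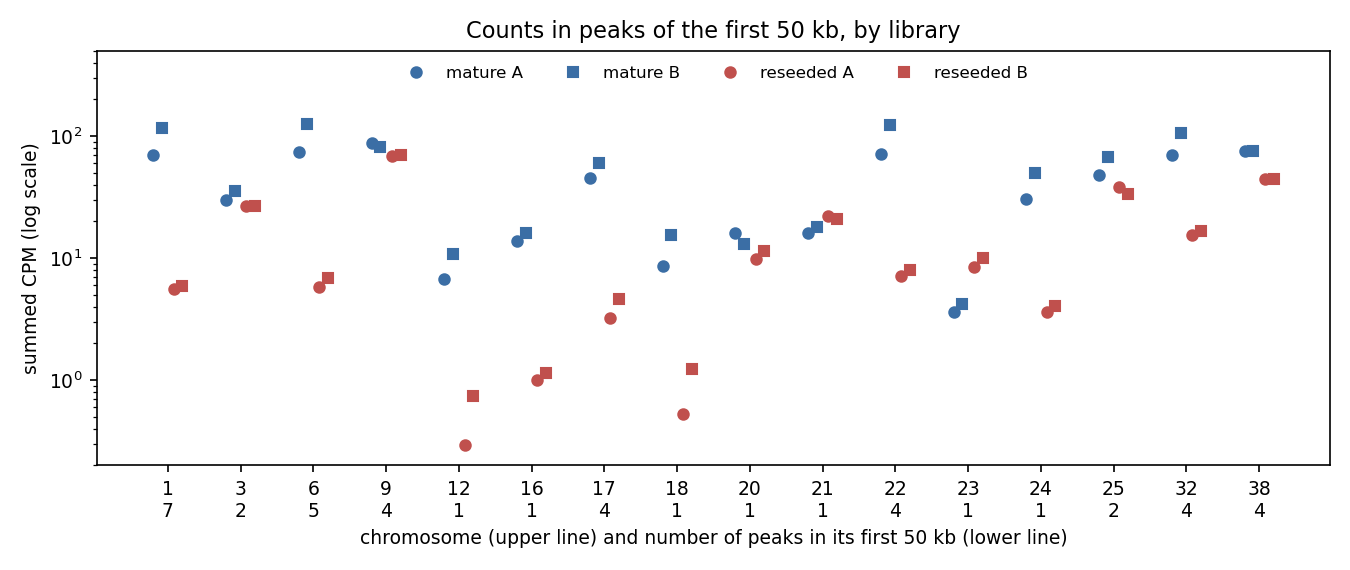
Summed CPM (log scale) of the peaks within 50 kb of the sequence start, for the 16 chromosomes that hold such peaks, in each of the 4 libraries. Mature libraries (blue) lie far above reseeded libraries (red) on chromosomes 1, 6 and 22, with mature B above mature A, whereas the groups lie close together on chromosomes 3, 9, 20 and 21.

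The mature libraries differed at many losses over the whole 3 Mb as well. Of the 323 members at least 4-fold lower, 190 had log2 folds from -4.5 to -3, a range set after seeing the values, on 31 chromosomes, and in 124 of these mature B exceeded mature A by a log2 ratio above 0.3. Of the other 133, 25 had such a ratio. Taking the 323 together, 149 (46.1%) had it, against 22.9% of the 3074 peaks at least 4-fold lower elsewhere on numbered chromosomes. The 323 include the 29 peaks of the first 50 kb, of which 26 had it. Beyond the first 100 kb, 117 of 284 (41.2%) had it. Members with that ratio had median CPM of 10.9 and 16.9 in mature A and B and 0.992 and 1.23 in reseeded A and B. The 174 without it had 18.0 and 18.3 against 2.16 and 2.30. At least 4-fold gains also had mature B above A, with a median log2 ratio of 0.37 at mature levels of 2.09 and 3.08 CPM.

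**Figure D3:**
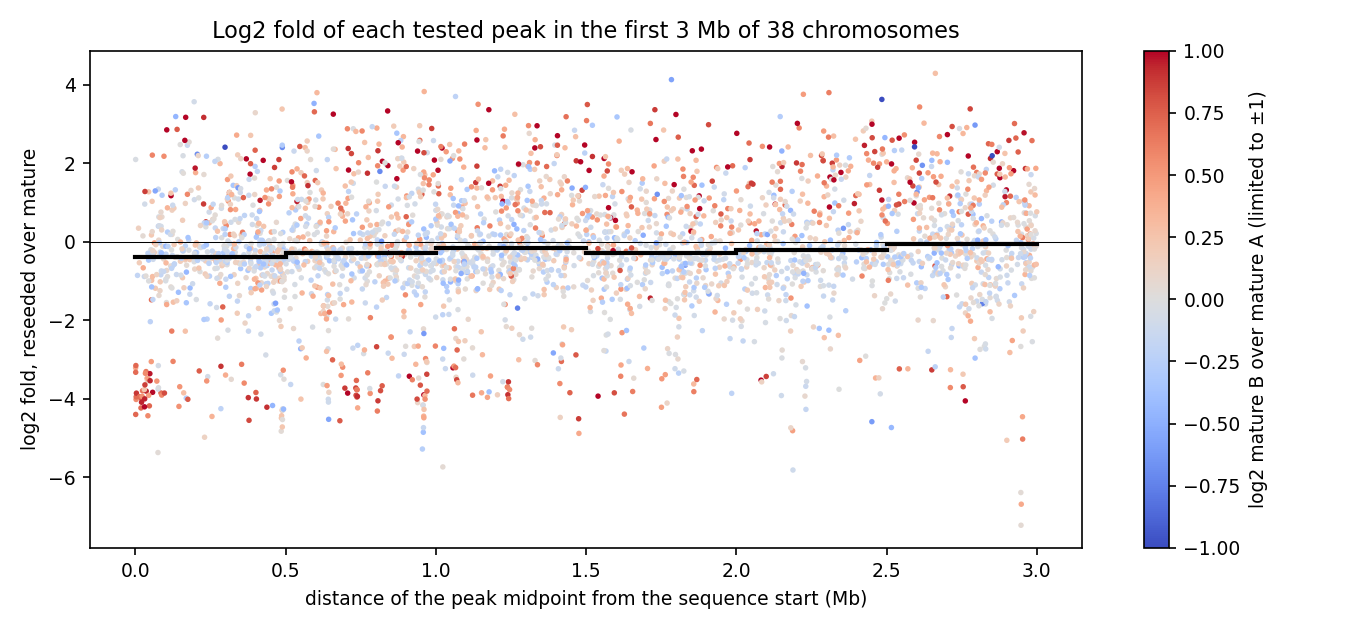
Log2 fold (reseeded over mature) of each tested member against the distance of its midpoint from the sequence start (Mb); colour gives the log2 ratio of mature B to mature A and black bars the median of each 500 kb. Medians run from -0.40 in the first bin to -0.06 in the last, and red points gather between -3 and -4.5, most densely at the left edge.

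Chromosomes differed widely in how their starts changed. Counts were summed over the first 3 Mb of each chromosome and tested together with all other windows of 3 Mb (750 windows with at least 5 peaks). Of the 38 start windows 23 were lower and 7 higher in reseeded cells by edgeR's quasi-likelihood test, and 8 were not called. Over all windows the order was the opposite, with 32.7% lower and 53.3% higher (86.0% called). The median log2 fold was -0.12 over start windows and 0.08 over all windows. Scaled by library size alone, which moved 5 more start windows to the higher side, 20 were lower and 12 higher, and upper-quartile factors gave 12 higher as well.

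To ask whether a start differed from its own chromosome rather than from the genome, each window was tested against the counts of the rest of its chromosome. By that measure 24 of 38 starts were lower and 10 higher, with 4 not called, against 32% lower and 56.6% higher (88.6% called) among 712 windows of numbered chromosomes. A start was lower in both tests on 19 chromosomes and higher in both on 7. The median log2 fold of the members lay below that of the chromosome's other peaks on 28 of 38 chromosomes. Even so, members at least 2-fold lower outnumbered those at least 2-fold higher on 15 chromosomes, and the reverse held on the other 23. Leaving out chromosomes singly, the share of members at least 2-fold lower ranged from 19.9% (without chromosome 14) to 21.9% (without chromosome 12). The log2 fold of a start was only weakly related to that of the rest of its chromosome (Pearson's r 0.12, Spearman's rho 0.19, 38 chromosomes measured in the same 4 libraries).

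**Figure D4:**
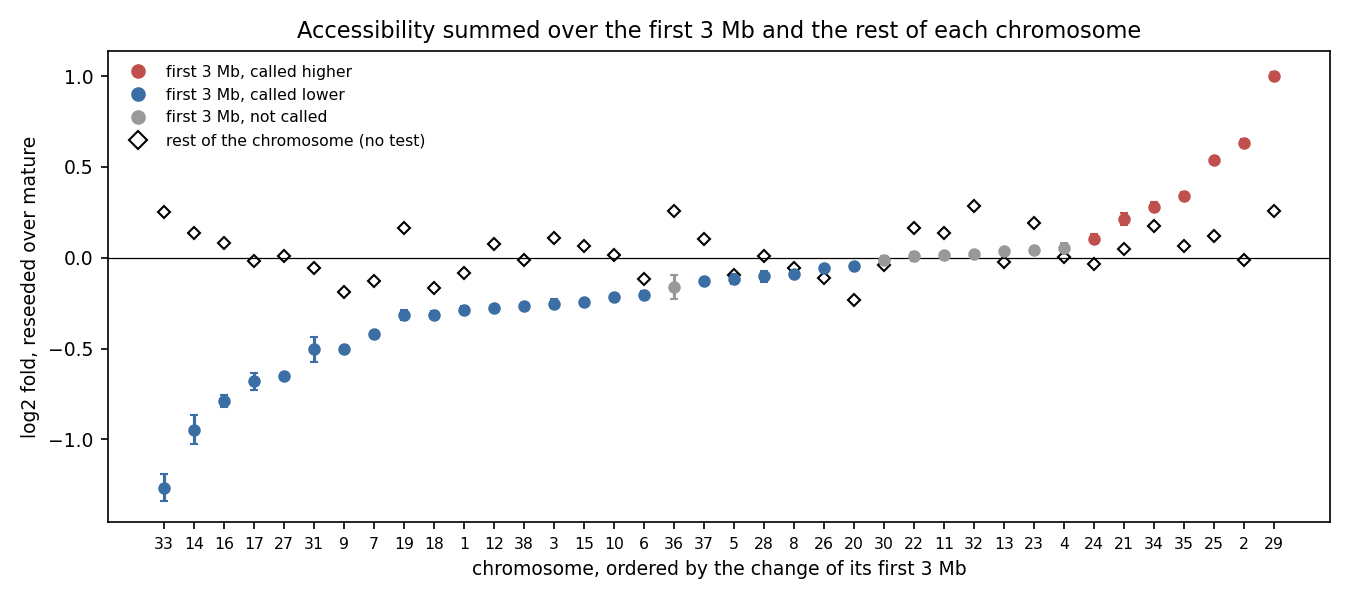
Log2 fold (reseeded over mature) of counts summed over the first 3 Mb of each of 38 chromosomes, ordered by size, with its standard error; filled points are called higher (red), called lower (blue) or not called (grey), and open diamonds give the rest of the chromosome. Starts run from -1.27 on chromosome 33 to 1.00 on chromosome 29, a wider range than the diamonds span.

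The 5 starts that fell most were those of chromosomes 33, 14, 16, 17 and 27. The chromosome 33 start, with 8 peaks, had 244 and 284 CPM in mature A and B and 111 and 107 CPM in reseeded A and B (log2 fold -1.27, SE 0.07, adjusted p = 2.00e-05). One peak held 47.3% of its mature counts, so this value rests on few peaks. At each of its 3 peaks at least 4-fold lower, mature B exceeded mature A by a log2 ratio above 0.3. With peaks above that ratio left out, this start had too few peaks to be tested. The chromosome 14 start (97 peaks) had 1826 and 2192 CPM in mature and 1025 and 1052 CPM in reseeded cells (log2 fold -0.95, SE 0.08, adjusted p = 1.03e-04). There 56 peaks were at least 2-fold lower, with 5 higher by that margin. The rest of chromosome 14 had a log2 fold of 0.13, and the start was lower against it by 1.08 on the log2 scale (SE 0.09).

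The starts of chromosomes 16 and 17 resembled that of chromosome 14. The chromosome 16 start (58 peaks, 32 at least 2-fold lower) had 1164 and 1246 CPM in mature and 697 and 697 CPM in reseeded cells, with an SE of 0.03 on its log2 fold of -0.79. On chromosome 17 (61 peaks, 31 at least 2-fold lower) the values were 1326 and 1471 against 871 and 870 CPM, a log2 fold of -0.68 (SE 0.05). Chromosomes 14, 16 and 17, singled out after their values were seen, held 216 members and 91 of the 323 members at least 4-fold lower (28.2%). At 73 of these 91 peaks mature B exceeded mature A by a log2 ratio above 0.3. Without mature A the 3 log2 folds were -1.08, -0.84 and -0.76, and without mature B -0.82, -0.75 and -0.62. With peaks above that mature ratio left out, the folds of chromosomes 14, 16 and 17 were smaller, at -0.53, -0.61 and -0.48. The part of the gap between the mature libraries in these losses was not tested. Without these 3 chromosomes 18.6% of members were at least 2-fold lower, with 21.3% higher by that margin.

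Some windows of 500 kb on chromosomes 16 and 17 held losses alone. In the window of chromosome 17 from 500001 to 1000000, 7 of 7 peaks were at least 2-fold lower, and their sum went from 70.1 and 119 CPM in mature A and B to 6.01 and 6.85 CPM in reseeded A and B (log2 fold -3.83, SE 0.25, adjusted p = 1.67e-06). In the window of chromosome 16 from 1000001 to 1500000, 10 of 10 peaks were at least 2-fold lower, from 108 and 164 CPM to 8.52 and 12.8 CPM (log2 fold -3.62, SE 0.23). These and the first 500 kb of chromosome 1 were the lowest of the 500 kb windows within the starts. On chromosome 14, 8 neighbouring peaks from 733130 to 739762 fell from median CPM of 21.0 and 31.9 to 1.69 and 2.13, and 11 from 1056595 to 1075215 from 12.1 and 18.0 to 1.63 and 1.64.

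A single peak set the sign on chromosome 31. Its start (18 peaks) fell by 0.50 on the log2 scale (SE 0.07, adjusted p = 8.49e-04), although the median log2 fold of its peaks was 0.28. The peak chr31:103561-104061, the strongest member by mean CPM, held 54.2% of the mature counts of that start. It had 248 and 330 CPM in mature A and B and 100 and 89.9 CPM in reseeded A and B (log2 fold -1.60, SE 0.08, adjusted p = 3.38e-18), or -0.88 under loess offsets. Without it the chromosome 31 start was higher in reseeded cells, at 0.21 on the log2 scale (SE 0.03, adjusted p = 8.53e-04). The next 4 strongest members differed little between groups. They lay at chr12:1570899-1571399, chr27:1847782-1848282, chr10:307279-307779 and chr38:1791596-1792096, with 92.3 to 157 CPM in the 4 libraries and log2 folds of -0.45 to -0.38. Under loess offsets these 4 folds turned positive, at 0.18, 0.11, 0.16 and 0.09 in that order.

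On some other chromosomes with losses the summed starts of the mature libraries were close to each other. The chromosome 27 start, known as background for its keratin genes (186 members, 61 at least 2-fold lower, with 13 higher by that margin), had 4480 and 4449 CPM in mature and 2857 and 2832 CPM in reseeded cells. Its log2 fold was -0.65 (SE 0.01, adjusted p = 2.79e-06), and the start fell from 20.3% to 13.9% of the counts of its chromosome. The peak-rich starts of chromosomes 9 (226 members) and 7 (179 members) fell with log2 folds of -0.50 and -0.42 (SE 0.01 each), from 5201 and 5266 to 3678 and 3710 CPM and from 3646 and 3705 to 2747 and 2743 CPM. The chromosome 12 start, known as background for the major histocompatibility complex, had the most members (250) and fell by 0.28 (SE 0.02), from 6241 and 6063 to 5077 and 5090 CPM, with nearly equal numbers at least 2-fold lower (29) and higher (28). For chromosomes 7, 9, 15, 27 and 38 together, the 113 members at least 4-fold lower had median CPM of 18.4 and 19.9 in mature A and B and 1.69 and 1.68 in reseeded A and B. These chromosomes were put together after their values were seen. At 23 of the 113 peaks (20.4%) mature B exceeded mature A by a log2 ratio above 0.3. Of these, 11 lay on chromosome 7, which had 26 members at least 4-fold lower.

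Runs of neighbouring losses were found at 11 places on 7 chromosomes, each with at least 5 successive tested members, no more than 10 kb apart, that were all at least 2-fold lower. They held 90 peaks, and 3 runs of gains held 15. Chromosome 15 carried the fullest of them, from 483179 to 494378, where 14 peaks had median CPM of 19.3 and 20.1 in mature A and B and 1.08 and 1.07 in reseeded A and B. On chromosome 7, 9 peaks from 954751 to 963516 went from 21.8 and 21.1 to 0.700 and 0.984, and 10 peaks from 1407334 to 1425756 from 16.9 and 19.2 to 2.71 and 2.99. On chromosome 9, 8 peaks from 638392 to 643877 went from 36.6 and 33.8 to 4.67 and 5.78, and on chromosome 38, 5 peaks from 74628 to 78376 went from 29.5 and 30.5 to 4.61 and 5.04. In each of these 5 runs the mature libraries were close and the groups lay far apart. In 3 of the 11 runs of losses, the pair on chromosome 14 above and one on chromosome 16 from 1237567 to 1245379, mature B exceeded mature A by a median log2 ratio above 0.3.

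The largest single losses lay on 5 chromosomes, 5 of the 10 on chromosome 27, and fell to a few counts. At chr27:2947116-2947616 the counts were 286 and 211 in mature A and B and 4 and 5 in reseeded A and B, or 33.2 and 34.2 CPM against 0.233 and 0.205 CPM. Its pooled counts differed 155-fold (95% counting interval 81.0 to 341), with a log2 fold of -7.22 (SE 0.21, adjusted p = 4.27e-24). It lay 2947 kb from the sequence start, between the peaks chr27:2946587-2947087 (log2 fold -6.39) and chr27:2947988-2948488 (log2 fold -6.68), in a run of 7 losses up to 2955955. Nearer the sequence start of the same chromosome, at 2188 kb, chr27:2188096-2188596 went from 23.0 and 21.2 CPM to 0.525 and 0.287 CPM (log2 fold -5.81, SE 0.25). Chromosome 38 held chr38:74628-75128, with 233 and 170 counts in mature A and B against 15 and 12 in reseeded A and B (log2 fold -5.37, SE 0.20), and chr38:229681-230181 (log2 fold -4.98). The other 4 of the 10 were chr23:1022745-1023245, chr7:954751-955251, chr9:2899934-2900434 and chr27:2952580-2953080, with log2 folds of -5.73, -5.28, -5.06 and -5.03. The chromosome 23 peak had 1 count in reseeded A and 11 in reseeded B, and its fold was 34.3 without reseeded A and 227 without reseeded B.

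The start windows with the highest log2 folds were those of chromosomes 29, 2, 25, 35 and 34. Gained members were not confined to them. By count chromosome 38 held the most, with 49 of its 234 members (20.9%) at least 2-fold higher. That share was near the 20.2% of all members and below the 26.9% of all tested peaks. More of its members (54) were at least 2-fold lower. The chromosome 29 start (56 members, 40 at least 2-fold higher, with 2 lower by that margin) had 579 and 598 CPM in mature A and B and 1171 and 1180 CPM in reseeded A and B (log2 fold 1.00, SE 0.02, adjusted p = 2.79e-06). The rest of chromosome 29 had a log2 fold of 0.26, and the start was higher against it by 0.74 (SE 0.03). The chromosome 2 start, whose first peak lay 928 kb from the sequence start, had 621 and 609 CPM against 950 and 956 CPM (log2 fold 0.63, SE 0.02), while the rest of that chromosome had a log2 fold of -0.01. The starts of chromosomes 25, 35 and 34 rose with log2 folds of 0.54, 0.34 and 0.28 (SE 0.02 each). None of the 5 starts had mature libraries that differed as much as the groups did. Peaks where mature B exceeded mature A by a log2 ratio above 0.3 were part of these gains. Without such peaks the log2 folds of chromosomes 29, 2, 25 and 35 were 0.74, 0.39, 0.36 and 0.17. That of chromosome 34 was 0.09 and no longer called (edgeR adjusted p = 0.133).

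Within these starts the gains were spread over many peaks. In the window of chromosome 29 from 500001 to 1000000, 20 of 25 peaks gained at least 2-fold and their sum rose from 174 and 199 CPM to 513 and 516 CPM (log2 fold 1.47, SE 0.05, adjusted p = 5.95e-08). On chromosome 2 from 2000001 to 2500000, 20 of 29 peaks were at least 2-fold higher, from 173 and 181 CPM to 413 and 418 CPM (log2 fold 1.24, SE 0.03). Chromosome 34 between 1000001 and 1500000 went from 49.4 and 53.1 CPM to 123 and 112 CPM (log2 fold 1.20, SE 0.07). These were the 3 highest 500 kb windows within the starts, and 48.3% of 2891 such windows over all chromosomes were called higher, 36.1% lower and 84.4% in either direction.

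The largest single gains lay on 9 chromosomes and started from a few counts. At chr10:2661967-2662467 there were 7 and 6 counts in mature A and B and 308 and 409 in reseeded A and B, or 0.812 and 0.972 CPM against 18.0 and 16.8 CPM (log2 fold 4.29, SE 0.24, adjusted p = 2.22e-17). Another, chr25:1783639-1784139, went from 1.28 and 0.810 CPM to 19.8 and 18.4 CPM (log2 fold 4.13, SE 0.23). The strongest of the 10 in reseeded cells, chr20:960692-961192, went from 2.55 and 3.24 CPM to 40.7 and 39.9 CPM (log2 fold 3.82, SE 0.15). The other 7 had log2 folds of 3.52 to 3.79 and lay at chr24:2307835-2308335, chr24:1064900-1065400, chr11:603769-604269, chr2:2222752-2223252, chr7:2483988-2484488, chr17:195016-195516 and chr34:594079-594579. For the chromosome 2 peak, loess offsets gave 2.51 in place of 3.75. Compared with the 10 largest losses they stood more alone. Within 10 kb the 10 gained peaks had between 0 and 3 neighbours each, and 7 of the 10 lost peaks had at least 6, most of them at least 2-fold lower too. At the chromosome 7 peak the fold was 21.3 without mature A, where mature A had 19 counts and mature B 6.

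**Figure D5:**
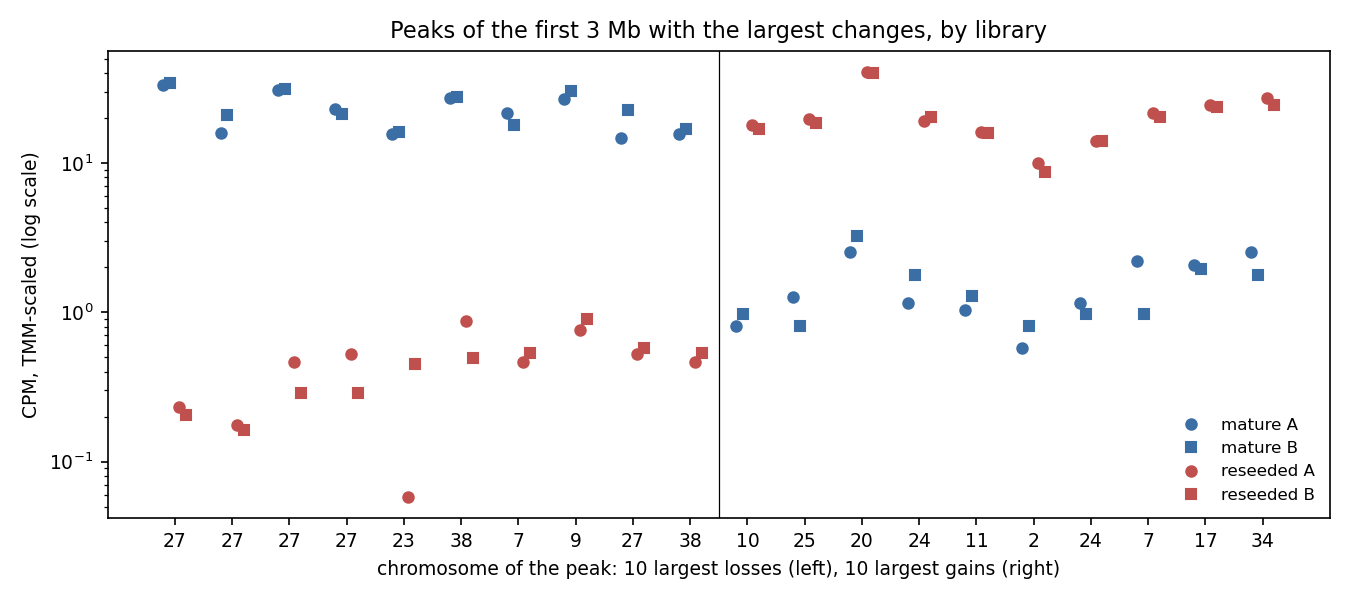
CPM (log scale) in each of the 4 libraries at the 10 members with the largest losses (left) and the 10 with the largest gains (right), labelled by chromosome. Lost peaks stand at 14.7 to 34.2 CPM in mature and below 1 CPM in reseeded libraries, and gained peaks at 0.58 to 3.24 CPM in mature and 8.65 to 40.7 CPM in reseeded libraries.

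Members were at least 2-fold lower more often than other peaks at each peak density. Losses are more frequent where peaks are dense in this table, so members were set beside other peaks of numbered chromosomes in the same band of peaks per 1 Mb window. In the sparsest band (up to 28 peaks) 21.0% of members and 11.3% of other peaks were at least 2-fold lower. The shares were 15.4% and 13.2% in the band of 29 to 45 peaks and 23.3% and 14.9% in that of 46 to 68. In the densest band (69 to 132 peaks) they were 24.3% and 19.3%. Gains of at least 2-fold were less frequent among members in each band, at 27.2% against 36.6% in the sparsest and 11.5% against 15.2% in the densest. Across the 38 starts the log2 fold had a Pearson's r of -0.16 and a Spearman's rho of -0.09 with the number of peaks per Mb, over chromosomes measured in the same libraries.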

How the data were processed

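Accessible chromatin was measured by ATAC-seq in 2 mature and 2 reseeded libraries of MDCKII cells. The authors' deposited table holds raw counts per peak, not normalized. The submitters' processing notes name Bowtie2, MACS2 and the build CanFam3.1. Not given in the sources used here: versions, settings, the Tn5 offset and the handling of duplicate and multiply aligned reads. The last can change counts in repeated sequence. Peaks were 501 bp wide. Positions count from 1.

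Tests used edgeR 4.0.16 under R 4.3.3, with filterByExpr (59076 of 59081 peaks), TMM factors and the quasi-likelihood test with no block, Benjamini-Hochberg adjusted over all tested peaks. Log2 folds are reseeded over mature, and SEs come from the fold and its F statistic. Sums over windows of 3 Mb and 500 kb were tested likewise, and 3 Mb sums also with the rest of the chromosome as offset. Steps were run on simulated counts in which few peaks or windows changed, as many up as down. That run could not check the scaling for a table with 84.1% of peaks called.

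Members, lists and tests were chosen with earlier results of these data known. Named were the 10 largest gains and 10 largest losses among called members whose groups did not overlap and whose mean count was 50 or more. Also named were the 5 strongest members, the member nearest a sequence start, the 5 highest and 5 lowest called start windows and the 3 highest and 3 lowest 500 kb windows, each by rule. The floor of 3 counts equals 0.342, 0.48, 0.177 and 0.125 CPM in mature A, mature B, reseeded A and reseeded B. Alternatives used DESeq2 1.42.0, limma 3.58.1 (voom), other scalings and filters, a replicate block and left-out libraries. With 1 library left in a group, it was assumed to vary as the other pair does. Tables and figures used numpy 2.4.6, scipy 1.17.1, pandas 2.3.3 and matplotlib 3.10.9.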

Additional observations from a re-analysis of the deposited data

How the results depend on the processing

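With members bounded at 2 Mb, 710 (31.5%) were called higher, 417 (18.5%) at least 2-fold higher, and the median log2 fold was -0.286. Bounded at 5 Mb, these were 1795 (36.7%), 1119 (22.9%) and -0.171, with 2251 and 4886 peaks tested in place of 3183. Among all tested peaks 42.3% were higher and 26.9% at least 2-fold higher. Tested against a fold of 1.5, 864 members were called lower, and 1 start window was called higher and 4 lower. Beside the 864, 747 members were called higher, a count among the 255 below. The shares over all peaks and all windows under that test were not computed. The same test ended 9 calls among 42 named peaks and windows. Upper-quartile factors and library size alone each gave 12 start windows called higher, and medians of -0.21304 and -0.21276. The median was -0.221 without chromosome 27, -0.22973 without chromosomes 27 and 32, whose orientation is in doubt, -0.22544 without chromosome 9 and -0.23048 without chromosome 14. Leaving out 1 library gave medians from -0.27417 to -0.22989. Without peaks where mature B exceeded mature A by a log2 ratio above 0.3, 338 of 2466 members (13.7%) were at least 2-fold higher. Beside them 484 (19.6%) were at least 2-fold lower, a count among the 255 below. The shares over all peaks under that exclusion were not computed. In bins of 250 kb, the share of peaks at least 2-fold lower next to the start was 30.99%. Loess offsets turned 4 strong peaks positive, at 0.1796 (chr12:1570899-1571399), 0.10596 (chr27:1847782-1848282), 0.1566 (chr10:307279-307779) and 0.092606 (chr38:1791596-1792096). Where no cause follows from fewer peaks or a stricter test, the cause was not tested. Of 277 alternatives of the main results, the other 255 stayed within 1.5 times a count, or within the spread between libraries for a median. The 277 include leaving out each chromosome in turn, which could not move a count that far. No chromosome held more than 64 of the 670 members at least 2-fold lower, or 49 of the 643 at least 2-fold higher. Leaving out chromosome 12 or 27 was entered more than once. Among the 255, leaving out the peaks with mature B above A gave 17 starts lower and 14 higher relative to their own chromosome, in place of 24 and 10.

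Without the first 100 kb, the start of chromosome 6 was no longer called (log2 fold -0.05, edgeR adjusted p = 0.139), and those of chromosomes 22 (0.21) and 32 (0.11) were called higher. Relative to its own chromosome, the start of chromosome 6 turned from -0.09 to 0.07 and that of chromosome 22 was no longer called (0.04). With a replicate block on the letters A and B, gains of at least 2-fold numbered 643 and losses 667 among members, and 24 start windows were lower. Deviations of A from B correlated between groups at 0.031 over all peaks and 0.105 over members, and nothing in the labels ties the letters to a shared culture or day. With windows of 1 Mb, 9 of 34 starts were higher and 20 lower. Settings that left out the first 100 kb, peaks with mature B above A, the strongest peak of chromosome 31 or a chromosome other than 12, 27 and 32 were chosen after seeing the data.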
